A study of Mus musculus with 20 samples.

Results

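The liver makes most of the proteins of blood clotting and of complement, and 37 genes that encode them in hepatocytes were followed here in mouse liver RNA. They were chosen by name, from textbook roles, and all 37 were among the 16115 genes of the count table. By role they were 11 clotting factors, 4 anticoagulants, 5 genes of fibrinolysis, 6 of complement initiation, the 2 amplification genes C3 and Cfb, 6 of the terminal pathway and 3 complement regulators. The livers came from male mice, and every mouse group had reached 18 months of treatment or of no treatment. Fancd2 mutant mice (d2-/-), which lack a protein of the Fanconi anaemia DNA repair pathway and model that disease, had been given oxymetholone (5 libraries), metformin (3 libraries) or both drugs (3 libraries), or had been left untreated (3 libraries). Untreated wild-type mice gave 4 libraries. The Fancd2 lesion is carried by all treated mice, no wild-type mouse was given a drug, and the labels used here give neither the doses nor the strain. Oxymetholone is a synthetic anabolic androgen used against marrow failure, and metformin is a glucose-lowering drug.

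Clotting runs as a chain of serine proteases that are secreted as inactive precursors. Factors XII and XI, prekallikrein and kininogen belong to the contact system, factor VII starts the tissue factor route, and factor X with its cofactor factor V turns prothrombin into thrombin. Antithrombin, heparin cofactor II and the protein C system restrain the chain, and plasmin, made from plasminogen, dissolves the clot. Complement is opened by C1, by mannose-binding lectins with their MASP proteases, or by factor B acting with C3, and it ends in a pore built from C5 to C9. Many of these genes are known targets of the hepatocyte factors HNF1, HNF4 and C/EBP, and several belong to the acute-phase response, in which cytokines raise the output of selected plasma proteins from the liver.

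The libraries held 20199671 to 32747780 counts, and the 37 genes took 1.76 to 3.90% of them. Levels are given as CPM, the count scaled to library depth with TMM factors. The tissue label was checked on 15 hepatocyte marker genes, none of which was at 0 in any library, with summed levels of 68206 to 133546 CPM. Of the 18 libraries, some stood apart. Combination replicate 3 and metformin replicate 3 had the lowest median correlation with the other libraries (0.916 and 0.926). Oxymetholone replicate 4 and untreated mutant replicate 2 had summed acute-phase gene levels of 272246 and 162427 CPM, against 18659 to 86987 CPM in the other 16 libraries. Where leaving out one of these libraries moved the printed difference of a gene by over 1.5 times, the value without it is given beside it. Oxymetholone replicate 3 also stood apart, with the next lowest median correlation (0.942). Mitochondrial genes took 8.19% of its counts, against 1.54 to 3.89% in the other libraries. It held the highest value of 17.2% and the lowest value of 15.7% of the 12737 genes whose mean reached 1 CPM. The labels do not say whether each library came from a separate mouse, so p-values measure the spread between these libraries.

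Per length of transcript, the members ran over more than 3 orders of magnitude. That span needs Cfb, the lowest, whose level is uncertain for the reasons given below. In wild-type livers the highest were Vtn (vitronectin, a clot and complement modulator) at 1467 ± 326 CPM per kb (SD, n = 4), Kng1 (kininogen) at 1343 ± 384 and F2 (prothrombin) at 1208 ± 106. The ranges of the 3 overlapped, with wild-type libraries of 1175 to 1808 CPM per kb for Vtn, 993 to 1859 for Kng1 and 1091 to 1309 for F2, so their order was within the spread. C8g, C3 and Serpinc1 (antithrombin) followed at 1004, 877 and 548 CPM per kb. At the low end stood Masp1, a protease of the lectin route, at 13.9, C2, the protease part of the classical convertase, at 4.35 and Cfb (factor B) at 0.683 CPM per kb. These 3 genes ranked 35, 36 and 37 of 37 in every one of the 5 groups, and C3 ranked 5 in every group. The first rank was held by Vtn in the oxymetholone, metformin and wild-type groups, and by Kng1 in the combination and untreated mutant groups.

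Some levels are uncertain because of the annotation. In GENCODE M21, 79.5% of the exon bases of Cfb and 42.8% of those of C2 also belong to Gm20547 on the same strand, and 43.2% of those of Klkb1 to Gm45753. How the authors counted such reads is not given in the sources used here. Exons of Masp2 and Serpinc1 share 54.9 and 34.4% of their bases with genes of the opposite strand (Tardbp and Zbtb37), and those of Plg 11.3% with Slc22a3. Cfb rested on 5 to 82 counts per library and C2 on 143 to 617, whereas every other member had at least 529 counts in every library. Kng1 and Kng2 are close paralogs, and how reads shared between them were assigned is not given either.

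**Figure D1:**
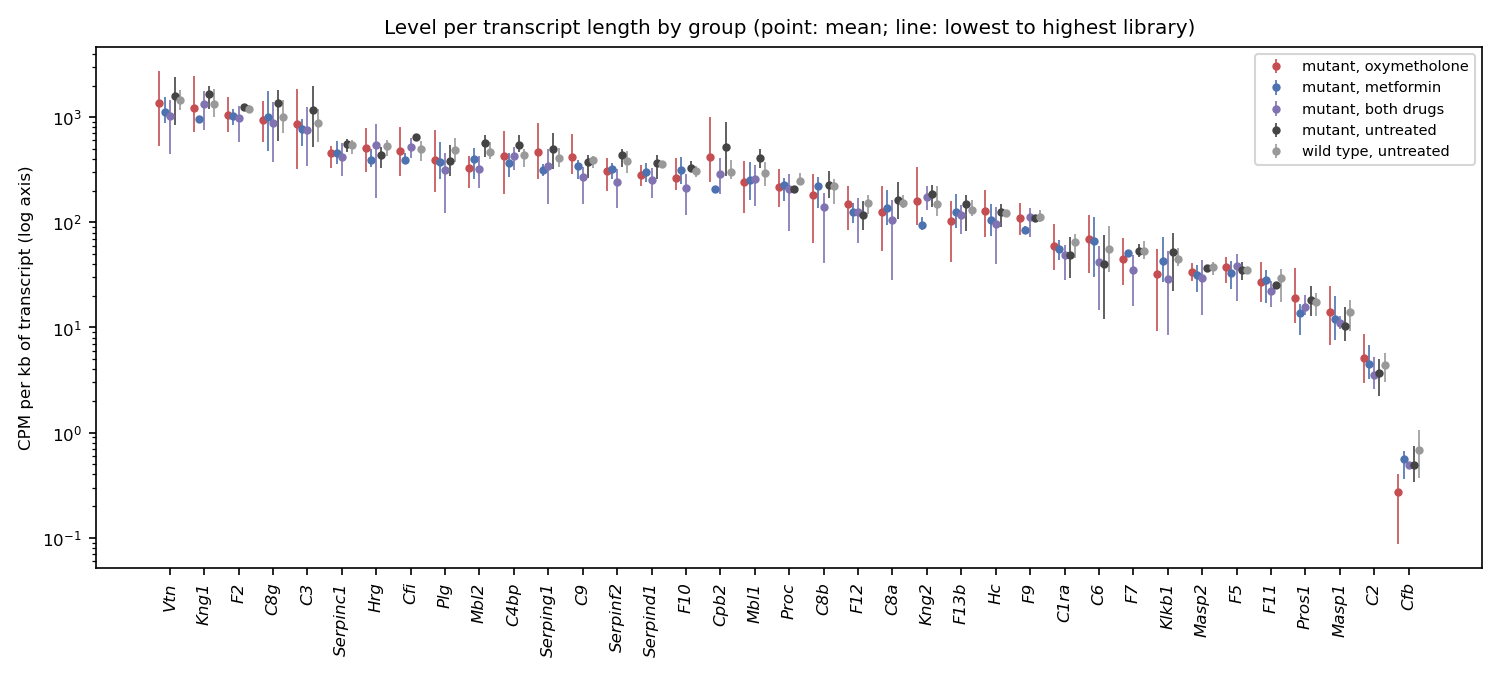
Level of the 37 genes in CPM per kb of the principal transcript (vertical axis, log scale), ordered by the wild-type mean, with a point for the mean of each of the 5 groups and a line across the lowest to the highest library. Vtn, Kng1 and F2 stand at the high end, and Cfb is the lowest gene in all 5 groups.

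Promoter sequence was found for 29 of the 37 genes in the RefSeq table of GRCm38.p6 (a different build from the GRCm39 of the counts), and Plg, Cfi, Cfb, Masp1, Proc, Kng1, C2 and Serping1 were not in it. The 250 bases before each start were searched on both strands. A member counted if any of its windows matched, whereas the shares of all windows count single windows, so these shares differ in unit. The HNF1 letters, GTTAAT and ATT with any 1 base between them, were present in 3 of 29 members (10.3%), against 0.371% of all 32851 windows of that length. The C/EBP letters TTGCNNAA were present in 7 of 29 (24.1%), against 9.56% of all windows. The STAT letters TTCNNNGAA were present in 4 of 29 (13.8%), against 7.02%, and the HNF4 letters CAAAGTCCA in 0 of 29, against 0.384%. The 3 windows with the HNF1 letters belong to different arms of the system: F13b, the carrier subunit of factor XIII, Hc, which encodes complement C5, and C4bp, which binds C4b and limits the classical route. They are shown as the 150 bases before the start, from 5′ to 3′ on the strand of the gene, with the HNF1 match in capitals. C3 and Kng2, which are among the members given in full below, are shown with their C/EBP match in capitals. The windows are chr1:139501557-139501706 (plus strand) for F13b, chr2:35061413-35061562 (minus) for Hc, chr1:130661619-130661768 (minus) for C4bp, chr17:57228137-57228286 (minus) for C3 and chr16:23029102-23029251 (minus) for Kng2.
F13b: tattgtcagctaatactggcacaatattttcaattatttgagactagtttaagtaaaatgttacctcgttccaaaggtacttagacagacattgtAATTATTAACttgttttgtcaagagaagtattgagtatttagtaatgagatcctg
Hc: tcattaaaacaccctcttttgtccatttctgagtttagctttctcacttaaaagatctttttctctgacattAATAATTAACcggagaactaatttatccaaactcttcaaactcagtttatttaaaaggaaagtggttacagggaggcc
C4bp: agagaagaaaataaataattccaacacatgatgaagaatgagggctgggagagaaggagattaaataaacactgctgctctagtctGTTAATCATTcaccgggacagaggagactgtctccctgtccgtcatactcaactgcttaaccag
C3: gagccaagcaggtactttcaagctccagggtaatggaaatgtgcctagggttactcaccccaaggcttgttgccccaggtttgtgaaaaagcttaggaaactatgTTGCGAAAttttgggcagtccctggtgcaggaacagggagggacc
Kng2: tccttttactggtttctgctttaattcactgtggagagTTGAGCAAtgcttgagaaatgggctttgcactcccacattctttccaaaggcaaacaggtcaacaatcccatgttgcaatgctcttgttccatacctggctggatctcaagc
The HNF1 matches lie 55 to 46 bases before the start in F13b, 78 to 69 in Hc and 64 to 55 in C4bp, on the minus strand of the gene in F13b and Hc and on its plus strand in C4bp. The C/EBP matches lie 45 to 38 bases before the start in C3 (plus strand) and 112 to 105 in Kng2 (minus strand). A match of letters is a description and not a binding site shown in these livers.

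None of the 37 genes passed an adjusted p of 0.05 in any of the 7 comparisons made, in edgeR, in DESeq2 or in limma-voom. Over all genes edgeR called 0.0434% in oxymetholone against untreated mutants, 0% with metformin, 0.0186% with the combination and 0% between untreated mutants and wild type. At an unadjusted p under 0.05 the members counted 1 with oxymetholone (4.8% of all genes), 2 with metformin (5.67%), 2 with the combination (5.46%) and 0 for genotype (2.58%). Some of these edgeR counts moved with single libraries left out. The oxymetholone count was 7 without oxymetholone replicate 4 (5.05%) and 0 without untreated mutant replicate 3 (2.97%). The combination count was 6 without combination replicate 2 (7.35%) and 0 without combination replicate 3 (3.95%). The metformin count was 0 without metformin replicate 4 (5.65%). In limma-voom the oxymetholone count was 7, where 20.5% of all genes were under that line. The 3 treated groups were each set against the same 3 untreated mutant libraries, so their differences are not independent of each other. In whole tissue fewer hepatocytes and less RNA per hepatocyte cannot be told apart. The values that follow describe sizes and directions, with 95% intervals from the edgeR fit.

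The first comparison asked how these genes differed in mutant livers given the androgen oxymetholone. Of the 37 genes, 23 were lower in oxymetholone-treated than in untreated mutants (62.2%, against 47.1% of all genes), with a median log2 difference of -0.23, against 0.031 over all genes. The mannose-binding lectins, which open the lectin route of complement, had the smallest p. Mbl2 was measured at 285, 361, 233, 468 and 423 CPM in the oxymetholone group, against 454, 736 and 652 CPM in untreated mutants. Only oxymetholone replicate 4 lay above the lowest untreated mutant library, and the log2 difference was -0.80 ± 0.30 (SE; 95% interval -1.42 to -0.17; edgeR adjusted p = 0.877, by Benjamini-Hochberg over all genes). Without untreated mutant replicate 3 the Mbl2 difference was -0.64, and it was no longer under an unadjusted p of 0.05; without any 1 of the other libraries of the 2 groups it was -0.68 to -0.97. Mbl1 was measured at 424, 429, 236, 603 and 190.3 CPM with oxymetholone, against 508, 784 and 617 CPM in untreated mutants, a log2 difference of -0.76 ± 0.38 (edgeR adjusted p = 0.877). The libraries of both lectins overlapped between the groups.

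Among the amplification genes, Cfb stood at 1.04, 0.482, 0.238, 1.1 and 0.84 CPM with oxymetholone, against 2.02, 0.93 and 1.06 CPM in untreated mutants (log2 difference -0.85 ± 0.45, edgeR adjusted p = 0.877), at the few counts given above. The Cfb difference was -0.42 without untreated mutant replicate 2. C3, the centre of all complement routes, was measured at 2011, 1668, 5968, 9608 and 2854 CPM with oxymetholone, against 10192, 5266 and 2679 CPM in untreated mutants. The groups overlapped over most of their ranges, and the log2 difference was -0.45 ± 0.57. The sign of the C3 difference turned, to 0.15, without untreated mutant replicate 2, and without oxymetholone replicate 4 it was -0.95. C6, a pore subunit, differed in the other direction, with 162, 94.8, 249, 335 and 148 CPM in the oxymetholone group, against 218, 91.5 and 34.6 CPM in untreated mutants (log2 difference 0.79 ± 0.60, edgeR adjusted p = 0.877). The C6 difference was 1.65 without untreated mutant replicate 2, 0.35 without untreated mutant replicate 4 and 0.51 without oxymetholone replicate 4. C2 also had a positive difference, with 7.81, 8.9, 23, 14.4 and 13.4 CPM under oxymetholone and 9.98, 13.2 and 5.87 CPM in untreated mutants (0.48 ± 0.39); it was 0.20 without oxymetholone replicate 3, 0.22 without untreated mutant replicate 4 and 0.77 without untreated mutant replicate 3. By role, 7 of 11 clotting factors, 2 of 4 anticoagulants, 3 of 5 fibrinolysis genes, 3 of 6 initiation genes, both amplification genes, 3 of 6 terminal genes and 3 of 3 regulators were lower with oxymetholone. No member had oxymetholone libraries all above or all below those of untreated mutants (3.46% of all genes did). The median of the 37 was -0.028 without untreated mutant replicate 2, -0.44 without oxymetholone replicate 4 and -0.12 without oxymetholone replicate 2. The 15 hepatocyte marker genes had 5 lower and 10 higher with oxymetholone (median 0.19).

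Metformin was set against the same untreated mutants. Of the 37 genes, 29 were lower with metformin (78.4%, against 46.1% of all genes), and the median log2 difference was -0.26, against 0.042 over all genes. The 15 hepatocyte marker genes had 11 lower and 4 higher with metformin (median -0.19). Marker lists of other cells also differed: 9 of 10 stellate or fibroblast genes were higher with metformin (median 1.45), 6 of 8 bile duct genes were higher (median 3.07) and 8 of 9 Kupffer cell or macrophage genes were lower (median -0.80). Their sums ran over 223 to 642, 36.7 to 751 and 82.7 to 241 CPM with metformin, against 189 to 344, 63.4 to 1475 and 156 to 276 CPM in untreated mutants. Without metformin replicate 3 the stellate median was 0.25 and the bile duct median 0.17, while the member median was -0.27 with 31 of 37 lower. The sizes were greatest in Cpb2, which encodes the carboxypeptidase that protects clots from plasmin, and in the kininogens. Cpb2 was measured at 308, 316 and 290.0 CPM with metformin, against 1330.0, 569 and 404 CPM in untreated mutants. The metformin libraries lay close together and below all 3 untreated ones, and the log2 difference was -1.33 ± 0.54 (95% interval -2.46 to -0.20; edgeR adjusted p = 0.777). Without untreated mutant replicate 2, one of the 2 libraries with high acute-phase levels, the Cpb2 difference was -0.67 and no longer under an unadjusted p of 0.05; it was also above that line without metformin replicate 1 or 4, at -1.34 and -1.30.

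Kng2 was measured at 259, 194 and 195 CPM with metformin, against 521, 428 and 321 CPM in untreated mutants. Its log2 difference was -0.97 ± 0.42 (95% interval -1.85 to -0.08; edgeR adjusted p = 0.825), and the groups did not overlap. It was -0.79 without untreated mutant replicate 2, and an unadjusted p of 0.05 was kept, of the single libraries of the 2 groups left out, only without metformin replicate 1 or untreated mutant replicate 4. Kng1, its paralog, stood at 1757, 1779 and 1726 CPM with metformin, against 3584, 3305 and 2201 CPM in untreated mutants, a difference of -0.79 ± 0.44 (edgeR adjusted p = 0.927). The regulators of complement were the role list with the lowest median, -0.68 (-0.37 without untreated mutant replicate 2). Cfi, the protease that cuts C3b and C4b, was measured at 949.7, 750.3 and 768 CPM with metformin, against 1315, 1425 and 1287 CPM in untreated mutants (log2 difference -0.71 ± 0.34, edgeR adjusted p = 0.879). C4bp was measured at 1138, 824 and 1376 CPM with metformin and 2057, 1427 and 1439 CPM in untreated mutants (-0.56 ± 0.40, and -0.37 without untreated mutant replicate 2). Serping1, the C1 inhibitor, stood at 491, 639.9 and 519 CPM, against 1249.9, 828 and 564 CPM in untreated mutants (-0.68 ± 0.49, and -0.34 without untreated mutant replicate 2), with overlap. Pros1, which encodes protein S, the cofactor of protein C, was measured at 27.8, 54.6 and 54.6 CPM with metformin, against 81.8, 56.4 and 42.4 CPM in untreated mutants, with overlap and a difference of -0.40 ± 0.41. The Pros1 difference was -0.11 without untreated mutant replicate 2 and -0.14 without metformin replicate 1.

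In 7 of the 37 genes (18.9%) every metformin library was below every untreated mutant library, which held for 3.32% of all genes. They were F2, F9 (factor IX), Kng1, Kng2, Cpb2, Cfi and C4bp. F9 stood at 250.1, 232 and 210.5 CPM with metformin, against 306, 276 and 317 CPM in untreated mutants, and F2 at 2386, 1986 and 1688 CPM, against 2424, 2535 and 2476 CPM. In 4 of the 7, Cpb2, F9, Kng1 and Kng2, the metformin libraries were also below all 4 wild-type libraries. Being below both untreated groups held for 0.621% of all genes; this set was looked at after the values were seen and has no test. No member had metformin libraries all above the untreated ones (3.94% of all genes did). By role, 9 of 11 clotting factors, 3 of 4 anticoagulants, 5 of 5 fibrinolysis genes, 3 of 6 initiation genes, 1 of 2 amplification genes, 5 of 6 terminal genes and 3 of 3 regulators were lower. The median of the 37 was -0.13 without untreated mutant replicate 3 and -0.17 without metformin replicate 4.

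**Figure D2:**
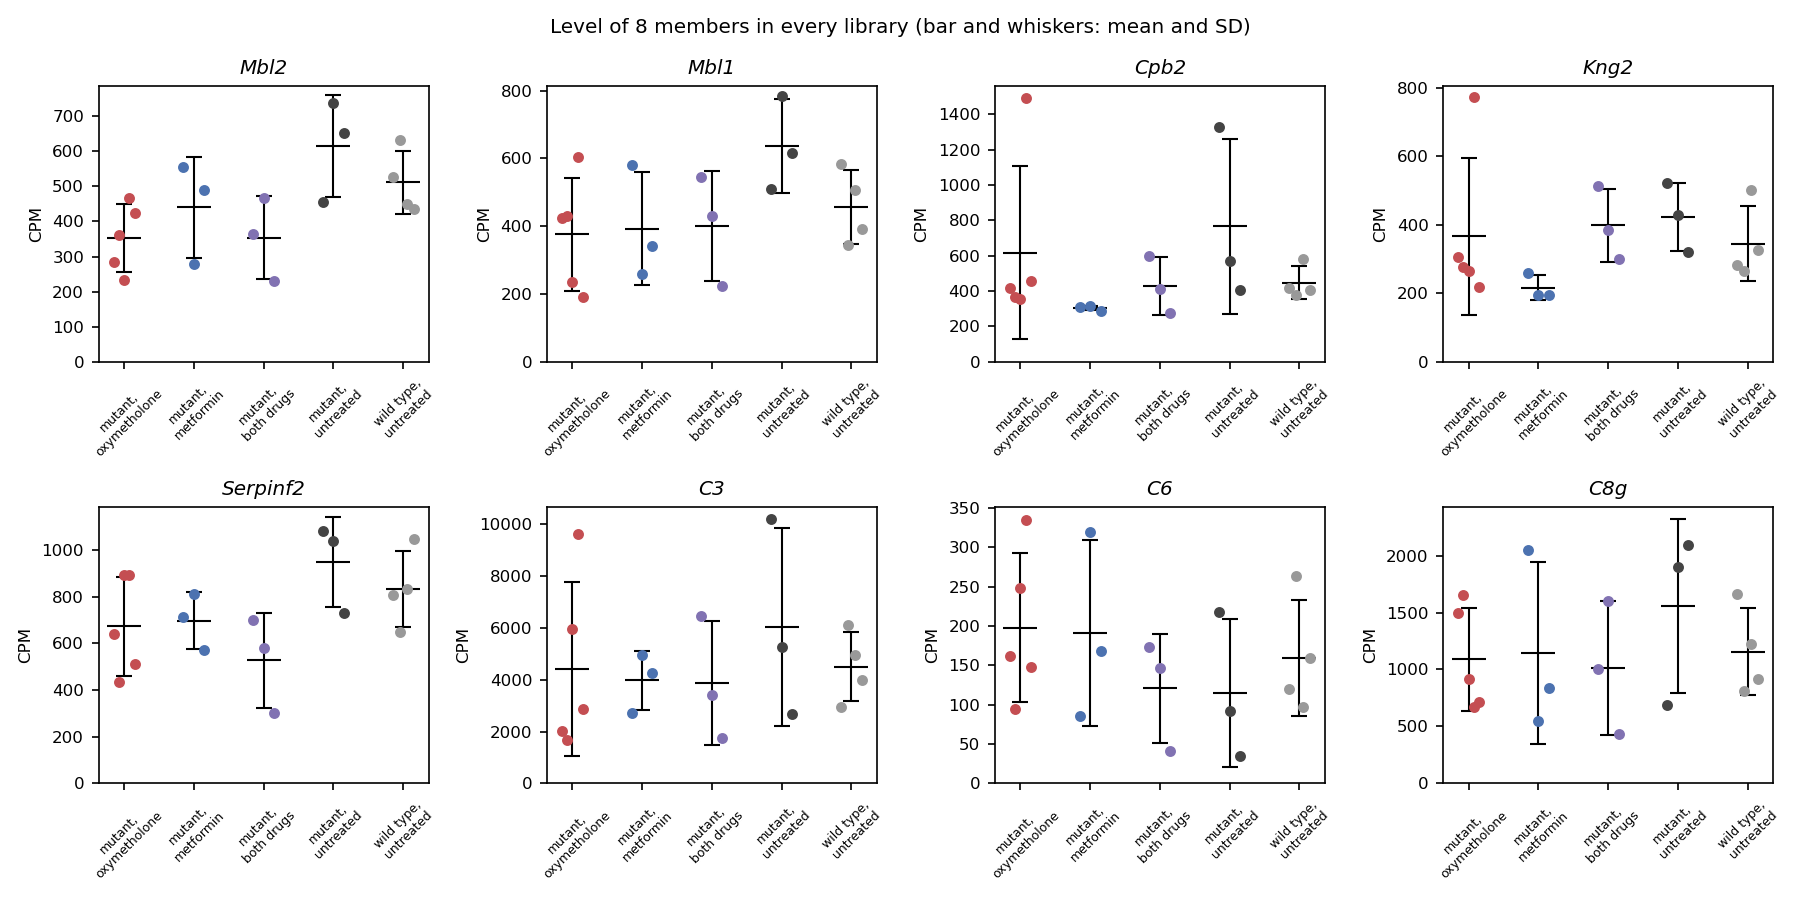
CPM (linear vertical axes) of Mbl2, Mbl1, Cpb2, Kng2, Serpinf2, C3, C6 and C8g in every library of the 5 groups, with a point per library and a bar and whiskers for the mean and SD. The 3 metformin libraries of Cpb2 sit between 290.0 and 316 CPM, below every library of untreated mutants and of wild type, and the groups overlap for C3, C6 and C8g.

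Mutants given both drugs were compared with untreated mutants in the same way. Of the 37 genes, 29 were lower (78.4%, against 49.6% of all genes), with a median log2 difference of -0.33, against 0.0038 over all genes. The 15 hepatocyte marker genes had 12 lower and 3 higher with both drugs (median -0.13). Serpinf2, the plasmin inhibitor antiplasmin, was measured at 698, 582 and 301 CPM with both drugs, against 1081, 1037 and 729 CPM in untreated mutants. Its groups did not overlap, and the log2 difference was -0.85 ± 0.35 (95% interval -1.58 to -0.11; edgeR adjusted p = 0.866). Without combination replicate 3 the Serpinf2 difference was -0.57 and no longer under an unadjusted p of 0.05, as also without untreated mutant replicate 2 or 3 (-0.74 and -0.78). F10 (factor X), at 589, 725 and 294 CPM with both drugs, against 762, 966 and 746 CPM in untreated mutants, was the other gene without overlap (log2 difference -0.62 ± 0.35, and -0.33 without combination replicate 3). These 2 genes are 5.41% of the members, and 3.95% of all genes had combination libraries all below the untreated ones. No member had them all above, as 4.71% of all genes did.

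Mbl2 was again low, at 363, 467 and 230.4 CPM with both drugs, against 454, 736 and 652 CPM in untreated mutants, a difference of -0.80 ± 0.34 (edgeR adjusted p = 0.881). Without combination replicate 3 the Mbl2 difference was -0.57, and of the single libraries of the 2 groups left out, only combination replicate 2 and untreated mutant replicate 2 left it under an unadjusted p of 0.05. The anticoagulant serpins Serpind1 (heparin cofactor II) and Serpinc1 had differences of -0.54 ± 0.28 and -0.40 ± 0.31. Without combination replicate 3 these were -0.32 for Serpind1 and -0.18 for Serpinc1, which was -0.71 without combination replicate 2. Serpind1 stood at 561, 720.0 and 375 CPM with both drugs, against 568, 961 and 876 CPM in untreated mutants, and its groups overlapped. Serpinc1 was measured at 1979, 2851 and 1374 CPM with both drugs, against 2297, 3056 and 2854 CPM in untreated mutants, also with overlap. The terminal genes had a median of -0.54 (-0.17 without combination replicate 3 and -0.31 without untreated mutant replicate 2), with C8b (a C8 chain) at 421, 423 and 92 CPM under both drugs and 383, 686 and 441 CPM in untreated mutants. C9, which forms the body of the pore, stood at 690.2, 655 and 309 CPM with both drugs, against 904, 835 and 538 CPM in untreated mutants. In both genes combination replicate 3 was the lowest library of all 18, and without it their differences from untreated mutants were -0.26 for C8b, against -0.69 with it, and -0.17 for C9, against -0.46. Vtn had 2529, 2116 and 774 CPM with both drugs, against 4247, 2575 and 1476 CPM in untreated mutants, and a log2 difference of -0.61 ± 0.56; it was -0.16 without untreated mutant replicate 2, -0.25 without combination replicate 3 and -0.94 without combination replicate 1. By role, 8 of 11 clotting factors, 3 of 4 anticoagulants, 4 of 5 fibrinolysis genes, 4 of 6 initiation genes, 2 of 2 amplification genes, 5 of 6 terminal genes and 3 of 3 regulators were lower. Without combination replicate 3 the median of the 37 was -0.12 and 23 were lower. It was -0.19 without untreated mutant replicate 2, and -0.52 and -0.53 without combination replicates 1 and 2.

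**Figure D3:**
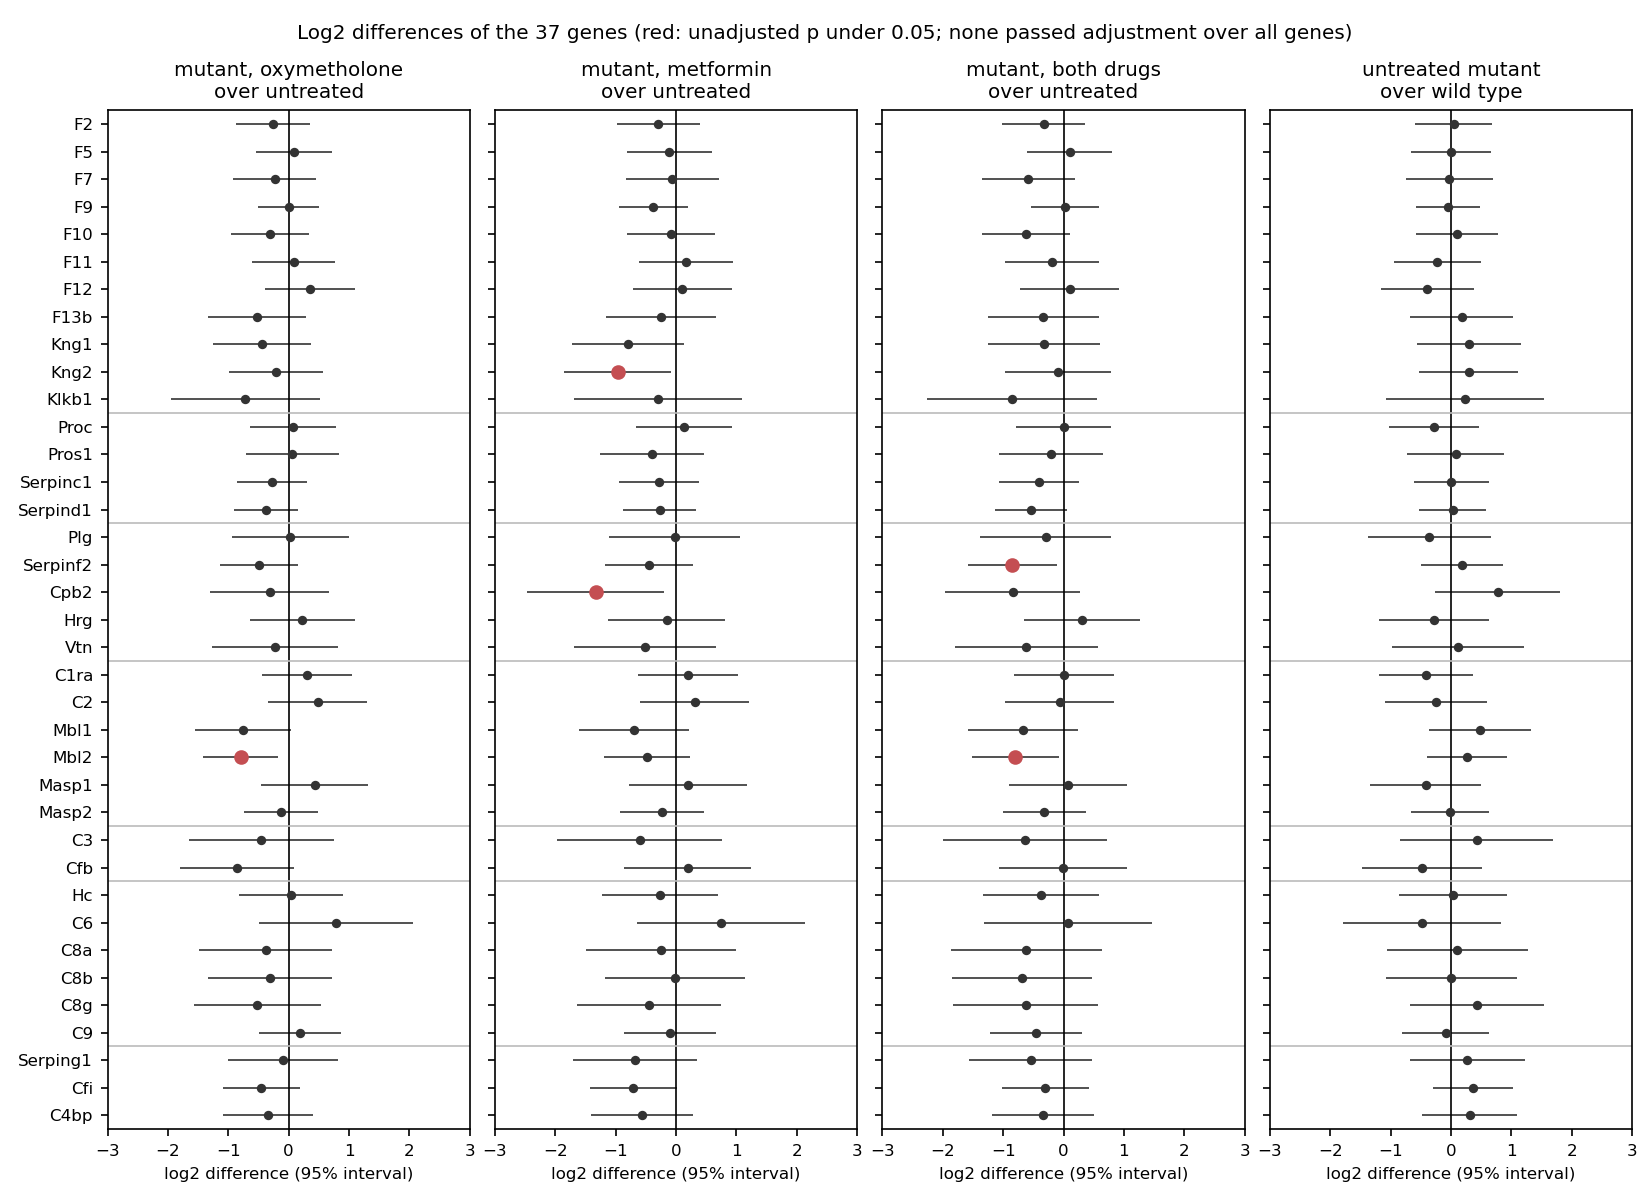
Log2 difference (horizontal axes) of each of the 37 genes (rows, grouped by role) with its 95% interval in mutants given oxymetholone, metformin or both drugs over untreated mutants, and in untreated mutants over wild type. Red points mark an unadjusted edgeR p under 0.05 (Mbl2, Kng2, Cpb2 and Serpinf2), and none of the 37 passed adjustment over all genes.

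Untreated mutants were compared with untreated wild type to ask what the Fancd2 lesion alone goes with. The members stayed close to 0, with 22 higher (59.5%, against 47.8% of all genes) and 15 lower (40.5%, against 52.2%), and a median log2 difference of 0.036, against -0.021 over all genes. The median was -0.067 without untreated mutant replicate 3. The largest difference was that of Cpb2, at 1330.0, 569 and 404 CPM in untreated mutants, against 420.4, 379.7, 584 and 407 CPM in wild type (0.78 ± 0.49, edgeR adjusted p = 0.973). It was 0.12 without untreated mutant replicate 2. That difference came with 1 high mutant library, and the other two lay within the wild-type range. Cfi was the member whose mutant libraries were all higher, at 1315, 1425 and 1287 CPM, against 1037, 801, 1230.4 and 1102 CPM in wild type (0.36 ± 0.32), and 2.5% of all genes had this order. Proc, the precursor of protein C, was the member whose mutant libraries were all lower, at 326, 345 and 302 CPM, against 373, 363, 375 and 459.9 CPM in wild type (-0.28 ± 0.35), as in 3.82% of all genes. The 3 regulators were all higher in untreated mutants (median 0.31, and 0.12 with 2 of 3 higher without untreated mutant replicate 2). Of the initiation genes 4 of 6 were lower (median -0.13), but 3 of 6 without untreated mutant replicate 4 (median 0.00063). Lower too were 5 of 11 clotting factors, 1 of 4 anticoagulants, 2 of 5 fibrinolysis genes, 1 of 2 amplification genes and 2 of 6 terminal genes. Over the 37 genes the 95% intervals reached down to -1.79 (C6) and up to 1.81 (Cpb2), so differences of that size lay within the intervals of those genes.

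Averaged over both drug states, the 4 mutant groups gave a main effect of each drug. For metformin 34 of 37 genes were lower in treated mutants (91.9%, against 48.7% of all genes), with a median log2 difference of -0.22, and 11 of 11 clotting factors, 5 of 5 fibrinolysis genes and 6 of 6 initiation genes were among them. The smallest p was that of Cpb2 (-0.93 ± 0.36, edgeR adjusted p = 0.654), and its difference was -0.60 without untreated mutant replicate 2, -0.61 without oxymetholone replicate 4 and -0.29 without both. Only 1 member was under an unadjusted p of 0.05, a share of 2.7% against 6.17% of all genes, and 0% of all genes were called. Without combination replicate 3 the median was -0.061 with 25 genes lower. The 15 hepatocyte marker genes had 14 lower and 1 higher in the metformin main effect (median -0.19). For oxymetholone 24 of 37 were lower (64.9%, against 52.3% of all genes; median -0.10), with Mbl2 first (-0.56 ± 0.23, edgeR adjusted p = 0.847), while 0.124% of all genes were called. The median was 0.051 without combination replicate 3, -0.015 without untreated mutant replicate 2, -0.21 without oxymetholone replicate 4 and -0.20 without metformin replicate 4, and it stayed within -0.21 and 0.051 over all single libraries left out. Mbl2 was the 1 member under an unadjusted p of 0.05 there (5.04% of all genes were). There were 4 such members without oxymetholone replicate 4 (4.87%) or combination replicate 2 (5.9%), and 0 without metformin replicate 1 (5.03%) or 4 (6.57%). The test of whether the oxymetholone effect differed with and without metformin called no member and 0% of all genes. The smallest p of that test were those of Kng2 (1.09 ± 0.55, edgeR adjusted p = 0.863) and Cfi (0.86 ± 0.45, adjusted p = 0.863), and none of the 37 was under an unadjusted p of 0.05 (3% of all genes were). Without oxymetholone replicate 4 there were 4 (3.37%), and without combination replicate 3 there were 2 (4.77%). The difference was positive in 24 of 37 (median 0.13, against -0.044 over all genes). The median was 0.47 without combination replicate 3, and -0.13 and -0.12 without combination replicates 1 and 2.

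**Figure D4:**
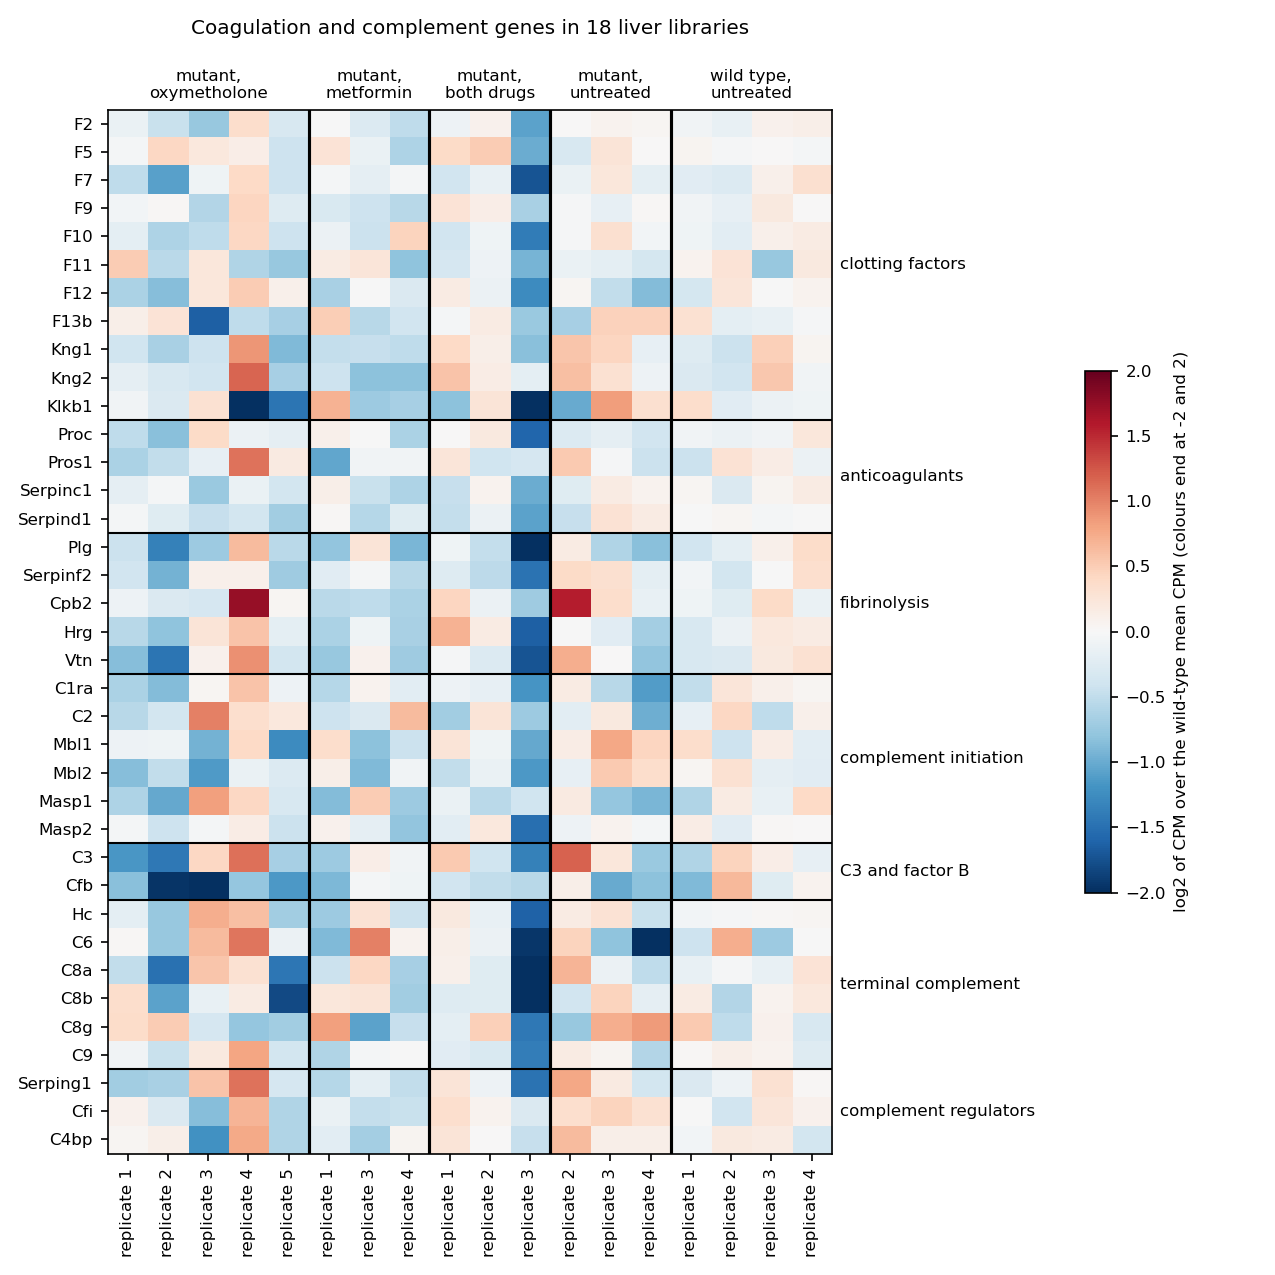
Log2 of CPM over the wild-type mean CPM (colour) for the 37 genes (rows, by role) in the 18 libraries (columns, by group), with colours that end at -2 and 2. Combination replicate 3 is blue in all 37 rows, and oxymetholone replicate 4 is red in most rows but deep blue in Klkb1.

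In combination replicate 3 all 37 genes were below the wild-type mean, with a median of -1.18 (log2), and 25 of the 37 had their lowest value of all libraries there, against 16.1% of the 12737 genes whose mean reached 1 CPM. The terminal complement genes lay lowest, at a median of -1.78, with C8a at 103 CPM, C8b at 92 CPM and C6 at 41.7 CPM, and the fibrinolysis genes followed at -1.63. The complement regulators lay nearest to wild type (-0.47). In that library the summed levels of 10 stellate or fibroblast genes (867 CPM), 9 Kupffer cell or macrophage genes (502 CPM) and 8 bile duct genes (841 CPM) were high, against 75.5 to 642, 66.3 to 474 and 36.7 to 1475 CPM in the other 17 libraries, and hepatocyte markers summed to 73579.5 CPM. The part of these cells in the low values was not tested.

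Oxymetholone replicate 4 was the reverse, with 16 of 37 genes at their highest of all libraries (4.98% of the same 12737 genes) and a median of 0.41. Cpb2, Kng1, Kng2, Pros1, Vtn, C9, Serping1, Cfi and C4bp all peaked there. In that library 9 members were below the wild-type mean, and Klkb1, which encodes prekallikrein, lay farthest below it (-2.28 in log2). Klkb1 stood there at 48.4 CPM, against 224, 191, 291 and 85 CPM in the other oxymetholone libraries. The same library had the highest acute-phase sum, and untreated mutant replicate 2, which was second, held the highest C3 (10192 CPM), C8a (877 CPM) and Serpinf2 (1081 CPM). C8g ran low in both, at 673 CPM in oxymetholone replicate 4 and 684 CPM in untreated mutant replicate 2, against 1904 and 2091 CPM in the other untreated mutants. These were -0.78 and -0.75 in log2 over the wild-type mean, and C8g was lower still in metformin replicate 3 (-1.07) and combination replicate 3 (-1.43). Without oxymetholone replicate 4 and untreated mutant replicate 2 the member medians were -0.28 for oxymetholone, -0.20 for metformin and -0.19 for the combination.

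**Figure D5:**
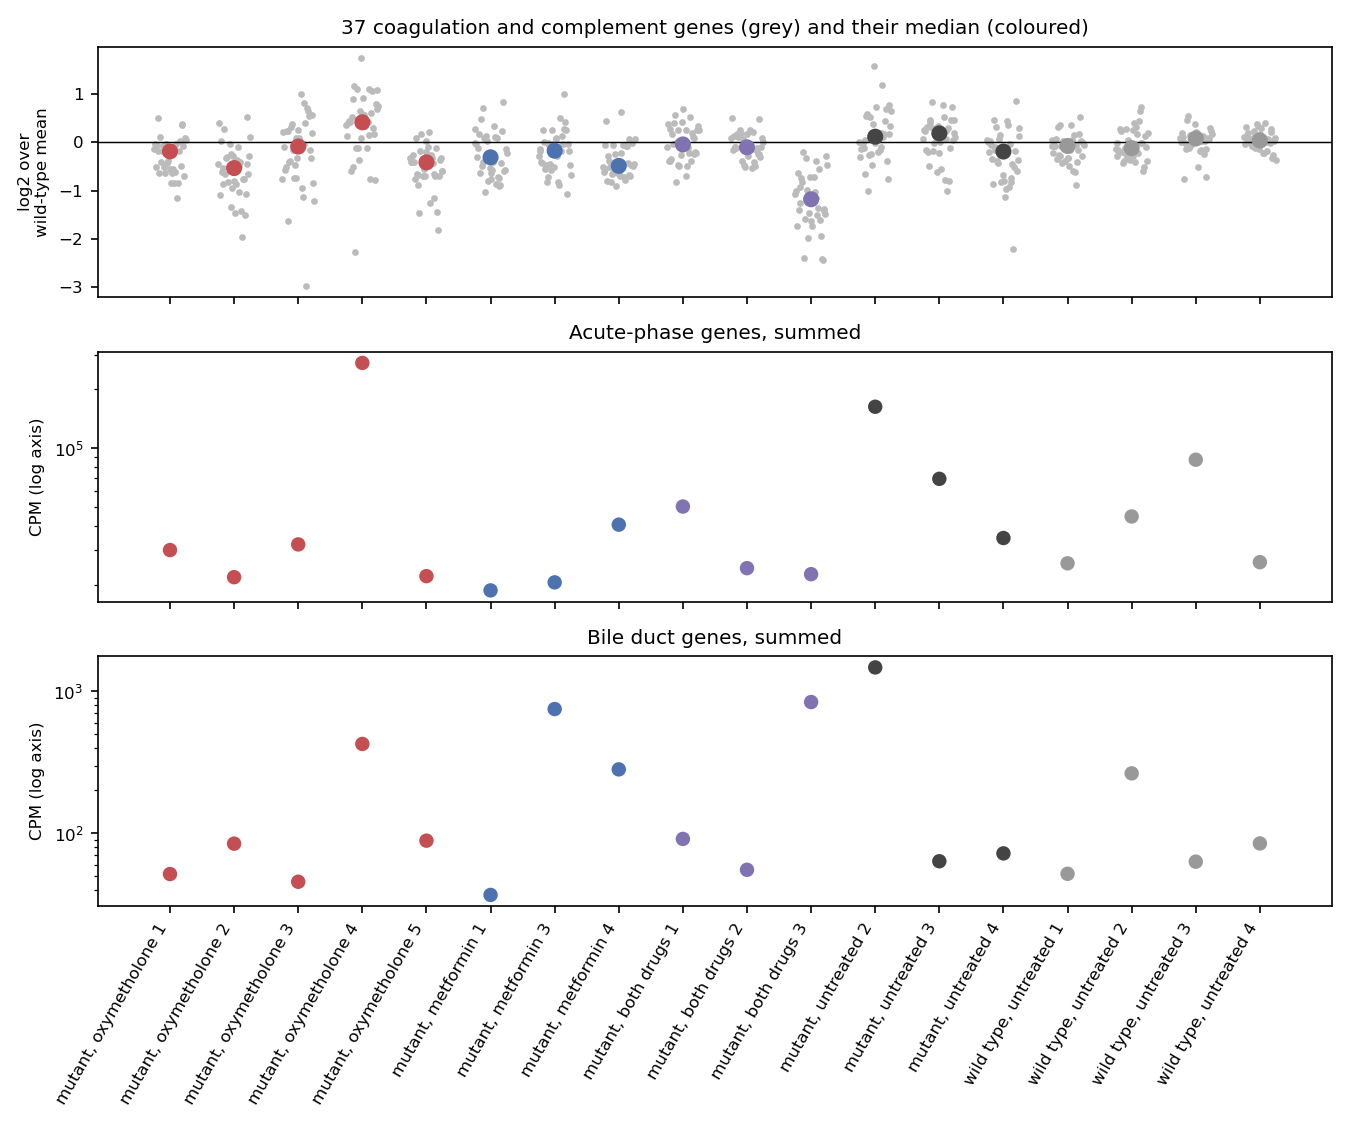
Upper panel: log2 over the wild-type mean of each of the 37 genes (grey points) and their median (coloured point) in each of the 18 libraries. Middle and lower panels: summed CPM (log axes) of the acute-phase and bile duct gene lists; combination replicate 3 has the lowest member median (-1.18) and oxymetholone replicate 4 the highest (0.41) and the highest acute-phase sum.

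The members differed in how steady they were. F9, Serpinc1 and Serpind1 varied least, with 2.11-fold, 2.23-fold and 2.56-fold between the highest and the lowest of the 18 libraries. The widest ranges were those of Cfb (12.3-fold, on few counts), C6 (9.70-fold), Klkb1 (9.43-fold), C8a (8.53-fold) and C8b (7.45-fold). Within groups the SD of log2 CPM was 0.30 for F9 and 0.94 for Klkb1.

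Members were compared across the 18 libraries in 9 pairs, mostly of genes whose products work together, picked after the data were seen. The adjustment over the 9 pairs does not cover that choice, so the p-values of the pairs are descriptions. The permutations moved libraries across the groups, so differences between groups and single low or high libraries also count toward these p-values. The 2 farthest libraries left out of a pair are those farthest from the median log2 CPM of its first-named gene. The kininogen paralogs varied together, with a Kng1 to Kng2 ratio of 4.60 to 9.15 (Pearson r = 0.905, Spearman rho = 0.876, permutation p = 1e-05 for each, the smallest the permutations can give; r = 0.844 without the 2 farthest libraries; adjusted p = 9e-05 for each over the 9 pairs). F7 and F10, neighbours on chromosome 8, had r = 0.885 (rho = 0.767, permutation p = 3e-05 and 0.00036, adjusted p = 0.000135 and 0.00162), and r = 0.715 without the 2 farthest libraries. Mbl1 and Mbl2 had r = 0.66 (rho = 0.678, permutation p = 0.00324 and 0.00253, adjusted p = 0.00583 and 0.00759), and r = 0.687 without the 2 farthest.

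The chains of C8, which form 1 protein, gave unlike values by pair. C8a and C8b had r = 0.802 but rho = 0.439 (permutation p = 0.0004 and 0.0706, adjusted p = 0.0012 and 0.127). Without the 2 libraries farthest from the C8a median r was 0.556, so the size of r rested partly on them. C8a and C8g had r = 0.059 and rho = -0.276 (permutation p = 0.817 and 0.268, adjusted p = 0.817 and 0.301), with C8g at 0.751 to 8.52 times the C8a level in CPM; r was -0.311 without the 2 farthest. C8b and C8g had r = 0.491 and rho = 0.354 (permutation p = 0.0361 and 0.15, adjusted p = 0.0542 and 0.193). Masp1 and Masp2, the proteases that act with the lectins, had r = 0.137 and rho = 0.00722 (permutation p = 0.608 and 0.98, adjusted p = 0.684 and 0.98). Pairs within the groups, after removal of the group means, gave r = 0.941 for the kininogens, 0.839 for F7 and F10, 0.528 for the lectins, 0.763 for C8a and C8b and -0.0473 for C8a and C8g. C3 and Cpb2 had r = 0.689 and rho = 0.527 (permutation p = 0.00098 and 0.0264, adjusted p = 0.0022 and 0.0594; r = 0.612 without the 2 farthest), and C3 and C8g r = -0.331 and rho = -0.368 (permutation p = 0.177 and 0.132, adjusted p = 0.228 and 0.193). All pairs share the library, its depth and its scaling.

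Other genes of clotting and complement that the liver expresses were followed as a list of 22. With both drugs 15 were lower and 7 higher than in untreated mutants (median -0.25), with metformin 16 were lower (median -0.16) and with oxymetholone 14 (median -0.04), and untreated mutants had 13 higher than wild type (median 0.32). Without untreated mutant replicate 2 the medians of oxymetholone and genotype turned to 0.089 and -0.045, and without combination replicate 3 that of the combination was -0.033. No gene of the list was called in edgeR. The fibrinogen chains make the protein that thrombin turns into the clot. Of these, Fgb was measured at 2835, 1389.7, 3227, 13301 and 1684 CPM with oxymetholone, 2452, 4074 and 2599 CPM with metformin and 4416, 2645 and 1534 CPM with both drugs, against 14890.2, 5004 and 3229.7 CPM in untreated mutants. Its log2 differences were -0.78 ± 0.66, -1.34 ± 0.77 and -1.43 ± 0.77 for these 3 comparisons, and 0.96 ± 0.70 in untreated mutants over wild type. Without untreated mutant replicate 2 the Fgb differences were 0.12 with oxymetholone, where the sign turned, -0.44 with metformin, -0.52 with both drugs and 0.055 for genotype. Without oxymetholone replicate 4 the oxymetholone difference of Fgb was -1.75. Oxymetholone replicate 4 and untreated mutant replicate 2 held the highest Fgb, as they held the highest acute-phase sums.

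Serpina5, which encodes the protein C inhibitor, had the smallest p of the list, at very low levels. It stood at 2.13, 0.765 and 2.7 CPM with both drugs, against 0.213, 0.383 and 0.44 CPM in untreated mutants, without overlap (log2 difference 2.44 ± 0.57, edgeR adjusted p = 0.472, DESeq2 adjusted p = 0.0235). Serpina10, a serpin that inhibits factor X, was measured at 1915, 1071 and 897 CPM in untreated mutants, against 671, 467, 706 and 488 CPM in wild type, also without overlap (1.15 ± 0.50, and 0.76 without untreated mutant replicate 2; edgeR adjusted p = 0.973). Of 23 clotting and complement genes expressed mainly by other cells, 20 were higher with both drugs (median 0.55), but without combination replicate 3 this was 11 of 23 (median -0.22). Of those, F3 (tissue factor, which starts clotting with factor VII) was measured at 3.37, 6.11 and 3.1 CPM with metformin, against 1.6, 1.64 and 1.87 CPM in untreated mutants (1.30 ± 0.38, edgeR adjusted p = 0.579). The vitamin K list of 5 genes serves the carboxylation and secretion of the clotting factors, and 4 of 5 were lower with each treatment; without untreated mutant replicate 2 these were 3 of 5 with oxymetholone, 2 of 5 with metformin and 3 of 5 with both drugs. Its carboxylase Ggcx stood at 31.6, 39.3 and 23.6 CPM with both drugs, against 49.8, 48.1 and 38.9 CPM in untreated mutants (-0.54 ± 0.22, edgeR adjusted p = 0.877).

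The hepatocyte transcription factors were read from a list of 14, of which none was called. With oxymetholone 11 were higher and 3 lower (median 0.23), with metformin 5 and 9 (median -0.048), and with both drugs 7 and 7 (median 0.0087). In untreated mutants 3 were higher and 11 lower than in wild type (median -0.42). Cebpd, a C/EBP factor of the acute-phase response, was measured at 17.5, 15.1, 10.3, 33.8 and 28 CPM with oxymetholone, against 7.39, 5.09 and 11.4 CPM in untreated mutants (log2 difference 1.40 ± 0.43, edgeR adjusted p = 0.659). Of the 23 acute-phase genes 23 were lower with metformin (median -1.37), 22 with both drugs (median -0.94) and 18 with oxymetholone (median -0.32), and 22 were higher in untreated mutants than in wild type (median 0.86). Without untreated mutant replicate 2 these medians were -0.59 with metformin, -0.27 with both drugs, 0.41 with oxymetholone and 0.17 for genotype, and without oxymetholone replicate 4 the oxymetholone median was -1.53. Their part in the values of the 37 genes was not tested.

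The test behind the authors' deposited table is unknown here. In that authors' deposited table none of the 37 genes had an adjusted p under 0.05 in any comparison, while 0.292% of all genes did with oxymetholone and 0% in each of the other comparisons. With oxymetholone, the authors' deposited table held 8 of the 37 (21.6%) under an unadjusted p of 0.05, all of them lower, against 10.7% of all genes. These 8 were Serpinf2 (log2 fold change -0.59, p = 0.00131, adjusted p = 0.148), C3 (-0.89, p = 0.00328), Cfb (-1.16, p = 0.00607), Mbl2 (-0.67), C8a (-0.69), Vtn (-0.56), Mbl1 (-0.61) and Kng1 (-0.59) in the authors' deposited table. For the metformin comparison the authors' deposited table had 0 members under an unadjusted p of 0.05 (3.7% of all genes) and 18 of 37 lower, with a median of 0.019, whereas the fit of the counts here had 29 lower and a median of -0.26. Of the 7 genes whose metformin libraries all lay below the untreated mutant ones, the authors' deposited table had F2 (0.026) and C4bp (0.058) higher. It had F9 (-0.071), Kng1 (-0.18), Cfi (-0.25), Kng2 (-0.30) and Cpb2 (-0.45) lower. The cause of that gap was not tested. For the combination the authors' deposited table had 2 members under an unadjusted p of 0.05 (8.56% of all genes), Serpinf2 (-0.60) and Mbl2 (-0.62), for genotype 1 (5.61%), Serpinf2 (0.35), and for the interaction 0 (3.63%).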

How the data were processed

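Liver RNA-seq was analysed from 1 table of 16115 genes. The authors' counts in it are whole numbers per gene and library, per the file headers the raw ones. Further deposited columns hold CPM, a depth-scaled signal, and TMM-scaled CPM computed here from the counts equals them to within a relative difference of 4.97e-15. The table also gives the authors' own log2 fold changes, each with a p-value and an adjusted p-value, and 18 residual columns that were left aside. GRCm39 is the build in the submitters' processing notes. Which aligner, counter, strand setting and annotation were used is unknown. Of 20 labelled samples, 2 were not analysed here (metformin replicate 2, untreated mutant replicate 1). Replicate numbers follow the order of the records and pair nothing.

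The counts were fitted in R 4.3.3 with the robust quasi-likelihood test of edgeR 4.0.16, with TMM factors and 1 coefficient per group over all 18 libraries. The filterByExpr step took out 0 genes, the common dispersion was 0.181, and p-values were adjusted by Benjamini-Hochberg over all genes, with a threshold of 0.05. The procedure was tested on simulated counts. Alternatives were DESeq2 1.42.0, its size factors within edgeR, no filter, a mean CPM of at least 1, a fit of only the compared groups, limma-voom (limma 3.58.1, quality weights), and leaving out libraries. Pairs of genes were tested with 100000 permutations in scipy 1.17.1. Levels per length used the APPRIS principal transcript of GENCODE M21.

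The members and all lists were chosen with earlier results of these data known. Every library's value is given for up to 3 members of each role with the smallest p over the oxymetholone, metformin, combination and genotype comparisons. From each list of other pathway genes, up to 4 by the same rule, and the fibrinogen genes, could be named. F2, F7, F9, Proc, Klkb1, C8a and C8g were singled out after their values were seen.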

Additional observations from a re-analysis of the deposited data

Results flagged for a closer look

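Of 74 sets of libraries (37 genes in the 2 groups with at least 4 libraries), 4 held a library far from the rest by Dixon's test at 95%, which chance does in about 1 in 20 sets. Kng1 in oxymetholone replicate 4 was 4532 CPM, and the nearest oxymetholone library was at 1861 CPM. Kng2 in the same library was 774 CPM, with the nearest at 305 CPM. Cpb2 in the same library was 1492 CPM, with the nearest at 459 CPM. Proc in wild-type replicate 4 was 459.9 CPM, with the nearest at 375 CPM. Oxymetholone replicate 4 was also the library with the highest acute-phase sum, 272246 CPM, and whether that accounts for the 3 values was not tested.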

How the results depend on the processing

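No paired analysis was possible because the labels carry no replicate numbers. The count of members called was 0 in all 7 comparisons under every alternative run, including DESeq2 and limma-voom. The count over all genes moved. For oxymetholone it was 7, and 77 with DESeq2, 14 with limma-voom, 15 without metformin 3 and combination 3, 4 without untreated mutant 2 and oxymetholone 4 (chosen after seeing the data), and 4 to 7 with each library left out. For the combination it was 3, and 43 with DESeq2, 16 with limma-voom, 0 with the compared groups alone, 5 and 1 without the same pairs of libraries, and 0 to 3 with each library left out (0 without untreated mutant replicate 2 or 4). The oxymetholone main effect called 20, and 79 with DESeq2, 12 at a mean CPM of at least 1, 8 without untreated mutant 2 and oxymetholone 4, and 9 to 18 with each library left out. DESeq2 called 11 for metformin, 28 for the metformin main effect and 3 for the interaction, against 0 each in edgeR. Of the gene differences printed, 3 reversed: C3 with both drugs, 0.052 in limma-voom against -0.64 in edgeR, and, without untreated mutant replicate 2, C3 with oxymetholone (0.15, against -0.45; -0.95 to 0.15 over single libraries) and Fgb with oxymetholone (0.12, against -0.78; -1.75 to 0.12). Over the wild-type mean, in log2, C3 was 0.53, -0.40 and -1.35 with both drugs, against 1.18, 0.23 and -0.75 in untreated mutants. The 1.18 is that of untreated mutant replicate 2, and the C3 difference with both drugs without that library is not given here. In limma-voom the member median was -0.058 with both drugs, -0.40 with metformin, 0.038 for the oxymetholone main effect (14 lower) and 0.44 for the interaction. Serpina5 with both drugs passed in DESeq2 (2.45, adjusted p = 0.0235), against an adjusted p of 0.472 in edgeR. The cause of these shifts was not tested. Few counts limit Cfb (5 to 82 per library) and C2, and the number of libraries limits the rest. Both genes share exon bases with Gm20547, and the part of that sharing in their low counts was not tested.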
